A study of Glycine max with 18 samples.

Results

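The soybean nuclear annotation holds genes that carry the names of chloroplast photosynthesis genes, and 10 of them, of the 56044 genes in the deposited table, are described across all 18 libraries. They are psbA (Glyma.05G073600), psbB (Glyma.08G281300), psbC (Glyma.05G074900), 2 copies of psbD (Glyma.04G095000 and Glyma.06G217900), psaB (Glyma.09G090100), petB (Glyma.01G058600), petN (Glyma.09G171300), ycf3 (Glyma.01G201600) and rbcL (Glyma.12G061600). They were picked by name from genes that differed between treatments at 24 and 36 hours after imbibition (HAI), so their differences and calls at these times describe the choice and support nothing further. RNA was taken from embryonic axes of cultivar BRS 284 seeds germinated at 28 ºC in sterile water (control, C) or in water with 200 µM paclobutrazol (PBZ, P), an inhibitor of gibberellin synthesis. Axes were collected at 12, 24 and 36 HAI with 3 libraries per condition, which gives the groups 12C, 12P, 24C, 24P, 36C and 36P. Each treatment used 60 seeds on 3 plates of 20 seeds per sample, so a library is a pool of axes. Values are RPKM, reads scaled to transcript length and to the mapped reads of the library, from reads that mapped to a single place in the genome. The depth of a library is not part of such values.

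In plants the chloroplast genome encodes the cores of both photosystems, most of the cytochrome complex between them and the large subunit of RuBisCO, the enzyme that fixes CO2. The nucleus encodes most of the remaining proteins, among them the antenna proteins and the extrinsic proteins of water oxidation. Pieces of chloroplast DNA are also found inside nuclear chromosomes of many plants, and a nuclear annotation can then list them under the chloroplast gene's name. All 10 genes share their name with a protein gene of the soybean plastid chromosome. Whether a read counted for one of them came from the nuclear locus or from a chloroplast transcript of like sequence cannot be told apart in these values. The same holds for fewer plastid-bearing cells against less RNA per cell.

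The libraries were widely spread in these genes. In the mean of log2(RPKM + 0.1) over the 10 genes, with the libraries cut at the middle of their order, the 9 highest lay between 2.1 and 4.98 and the 9 lowest between -0.40 and 1.77. The levels formed a series with no wide step at this cut. The high set held both treatments: replicates 1 and 3 of 12C, all of 12P, all of 24P and replicate 3 of 36C. The low set held replicate 2 of 12C, all of 24C, replicates 1 and 2 of 36C and all of 36P. A pair of control libraries therefore stood apart from their own groups, replicate 2 of 12C on the low side and replicate 3 of 36C on the high side. Together the 10 genes took between 0.00185% and 0.0724% of a library's summed RPKM.

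**Figure D1:**
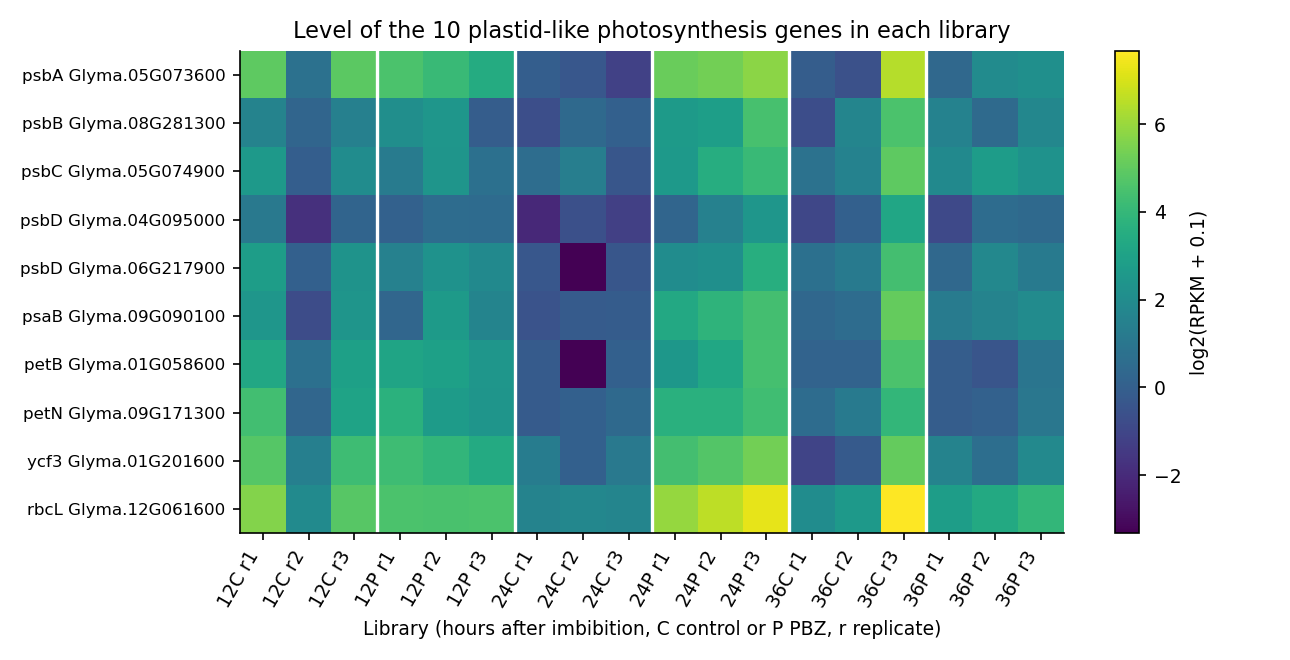
Heat map of log2(RPKM + 0.1) for the 10 genes (rows) in the 18 libraries (columns, ordered by group and replicate). Replicate 2 of 12C is dark beside its group, replicate 3 of 36C is bright beside its group, and the 24C columns are dark against the 24P columns.

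Among the photosystem II genes, psbA (Glyma.05G073600), named for a reaction centre protein that is damaged by light and constantly replaced, varied the most, with an SD of 2.57 on the log2 scale over the 18 libraries. At 12 HAI it stood at 30.5, 1.62 and 30.2 RPKM in control replicates 1, 2 and 3 and at 23.2, 17.4 and 10.8 RPKM with PBZ. At 24 HAI it stood at 0.869, 0.695 and 0.338 RPKM in control and at 35.2, 40.2 and 53.9 RPKM with PBZ. At 36 HAI the controls held 0.840, 0.565 and 87.5 RPKM and the PBZ libraries 1.22, 3.90 and 4.42 RPKM. The groups were far apart at 24 HAI, whereas at 36 HAI one control library exceeded every PBZ library and the other control libraries lay below them all. On the log2 scale its difference between PBZ and control was 5.93 ± 0.31 (SE, n = 3 per group) at 24 HAI, the largest of the 10.

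The psbB and psbC genes are named for the chlorophyll-binding proteins that pass energy to the reaction centre. For psbB (Glyma.08G281300), 12 HAI gave 2.96, 1.11 and 2.68 RPKM in control and 4.25, 5.44 and 0.849 RPKM with PBZ. At 24 HAI it gave 0.532, 1.27 and 0.930 RPKM in control and 6.32, 7.04 and 22.1 RPKM with PBZ, and at 36 HAI 0.513, 3.11 and 23.2 RPKM in control and 2.80, 1.3 and 3.32 RPKM with PBZ. Its groups overlapped at 12 and 36 HAI and not at 24 HAI. For psbC (Glyma.05G074900), the controls held 5.84, 0.889 and 3.96 RPKM at 12 HAI, 1.43, 2.50 and 0.667 RPKM at 24 HAI, and 1.66, 2.79 and 30.8 RPKM at 36 HAI. Its PBZ libraries held 2.26, 5.17 and 1.58 RPKM, then 5.89, 11.6 and 17.4 RPKM, then 3.61, 6.67 and 4.77 RPKM. In 36P psbC stayed above the level of 24C in every library, with a lowest value of 3.61 RPKM against a highest of 2.50 RPKM. The reads behind these values were estimated at 12 and 11. The same placing was found for psbA, psbB, psbD Glyma.06G217900, psaB and rbcL, and not for the remaining genes. For psbB it rested on an estimated 2 reads in replicate 2 of 36P against 3 reads in replicate 2 of 24C. The share of all genes placed in this way was not computed, so nothing is read from this placing.

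The psbD name belongs to the partner of the psbA protein in the reaction centre. The copy Glyma.04G095000 was the lowest of the 10 genes in 13 of 18 libraries, with a median of 1.08 RPKM over the 18, against 3.05 RPKM for Glyma.06G217900. Its controls held 2.07, 0.190 and 1.08 RPKM at 12 HAI, 0.139, 0.552 and 0.325 RPKM at 24 HAI, and 0.399, 0.946 and 9.0 RPKM at 36 HAI. With PBZ it held 0.982, 1.37 and 1.35 RPKM, then 1.09, 2.76 and 5.46 RPKM, then 0.435, 1.36 and 1.25 RPKM. Glyma.06G217900 stood above the other copy in 17 of 18 libraries, the exception being replicate 2 of 24C, where it was listed at 0. Its controls held 6.77, 0.939 and 4.90 RPKM at 12 HAI, 0.693, 0 and 0.672 RPKM at 24 HAI, and 1.54, 2.23 and 21.0 RPKM at 36 HAI. The PBZ libraries held 2.73, 4.74 and 3.64 RPKM, then 4.03, 4.37 and 11.7 RPKM, then 1.20, 3.37 and 2.23 RPKM.

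On the photosystem I side, psaB is named for a core protein of the reaction centre and ycf3 for a factor that helps assemble the complex. For psaB (Glyma.09G090100), the controls held 5.39, 0.481 and 5.19 RPKM at 12 HAI, 0.606, 0.804 and 0.824 RPKM at 24 HAI, and 1.16, 1.38 and 33.4 RPKM at 36 HAI. With PBZ it held 1.14, 6.20 and 3.01 RPKM, then 9.92, 14.1 and 21.0 RPKM, then 2.31, 2.97 and 3.90 RPKM. For ycf3 (Glyma.01G201600), the controls held 27.1, 2.62 and 19.2 RPKM at 12 HAI, 2.37, 0.947 and 2.08 RPKM at 24 HAI, and 0.382, 0.773 and 33.4 RPKM at 36 HAI. In the PBZ libraries it reached 18.9, 15.1 and 10.3 RPKM, then 21.1, 26.4 and 40.2 RPKM, then 2.92, 1.45 and 3.57 RPKM. Both genes had every 24C library below every 24P library, and ycf3 was the only one of the 10 with its highest value in 24P.

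The cytochrome complex carries electrons between the photosystems, and petB and petN are named for its cytochrome subunit and one of its small subunits. For petB (Glyma.01G058600), the controls held 9.58, 1.55 and 7.57 RPKM at 12 HAI, 0.796, 0 and 0.930 RPKM at 24 HAI, and 1.02, 1.04 and 23.2 RPKM at 36 HAI. With PBZ it held 8.49, 7.61 and 5.39 RPKM, then 5.47, 9.19 and 21.5 RPKM, then 0.837, 0.651 and 1.85 RPKM. For petN (Glyma.09G171300), the controls held 20.0, 1.15 and 8.30 RPKM at 12 HAI, 0.790, 0.946 and 1.26 RPKM at 24 HAI, and 1.38, 2.17 and 15.6 RPKM at 36 HAI. The PBZ values were 12.8, 6.47 and 5.22 RPKM, then 12.6, 12.7 and 19.8 RPKM, then 0.856, 0.974 and 1.97 RPKM. The highest petN value was in replicate 1 of 12C, unlike 8 of the 10 genes, which were highest in replicate 3 of 36C.

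The rbcL gene (Glyma.12G061600), named for the large subunit of RuBisCO, was the highest of the 10 in 17 of 18 libraries. Its controls held 49.0, 3.73 and 28.2 RPKM at 12 HAI, 2.92, 3.26 and 3.065 RPKM at 24 HAI, and 3.95, 5.99 and 204 RPKM at 36 HAI. With PBZ it held 23.4, 22.9 and 23.8 RPKM, then 61.98, 94.3 and 155 RPKM, then 6.76, 10.01 and 15.4 RPKM. The 24C libraries lay close together (SD 0.169 RPKM, n = 3), and so did the 12P libraries (SD 0.450 RPKM), whereas the SD of 36C was 115 RPKM.

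The low values rested on few reads. For 9 of the 10 genes, all but petN, the values of the 8 low libraries of 24 and 36 HAI that were worth under 30 reads followed whole-read steps. The rbcL value in replicate 3 of 36P was above that limit and was not checked. In 24C a gene then had 0 to 18 reads, with a median of 4, and in the low libraries of 36 HAI 1 to 28 reads, with a median of 7 among the values checked. For psbA the estimates in 24C were 3, 3 and 2 reads, and for rbcL 10, 14 and 18 reads. Differences of a few reads between low libraries were not detectable at this depth.

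At 12 HAI, the one time that did not enter the choice of the genes, PBZ and control were not told apart. Of the 10 genes, 0 passed both limits of the limma test (adjusted p of 0.05 and a log2 change of 1), where 0.0102% of the 29297 genes tested passed. The log2 differences lay between -0.07 and 0.55, with SE between 0.591 and 1.002, and the adjusted p from limma was 0.999 for each gene. The groups overlapped for all 10, where 10.6% of the genes tested had groups that did not. The smallest unadjusted p among the 10 was 0.402, and 1478 of all genes had an unadjusted p under 0.05. Replicate 2 of 12C decided the direction: 9 of the 10 differences were positive with it, and all 10 were negative without it, between -0.90 and -0.04.

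At 24 HAI every PBZ library was above every control library for all 10 genes, where 11.4% of the 31148 genes tested were placed in this way. The log2 differences ranged from 2.72 for psbD Glyma.04G095000 to 5.93 for psbA, with a median of 3.96. Both limits were passed by 7 of the 10, against 0.918% of all genes tested, and as these genes were chosen from this contrast nothing is read from that share. All 10 entered the fit, 7 of them only through their PBZ libraries, and the 24C mean reached 1 RPKM for psbC, ycf3 and rbcL. With all 18 libraries in one fit, 0 of the 10 passed both limits, and the other settings with every 24 HAI library gave 6 to 10.

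At 36 HAI replicate 3 of 36C stood far above the other control libraries. The means over the 10 genes were 0.18, 0.83 and 4.98 in control replicates 1, 2 and 3. As a description, since this contrast also entered the choice, 0 of the 10 genes passed both limits, where 0.128% of the 32752 genes tested passed, and the groups overlapped for all 10, where 15.8% of the genes tested had groups that did not. The log2 differences lay between -1.54 and 0.10 with a median of -0.65, and 9 of the 10 were negative. Without replicate 3 of 36C, 8 of the 10 were positive, between -0.51 and 1.99 with a median of 0.91. The exceptions without it were petB, at -0.02, and petN, at -0.51.

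**Figure D2:**
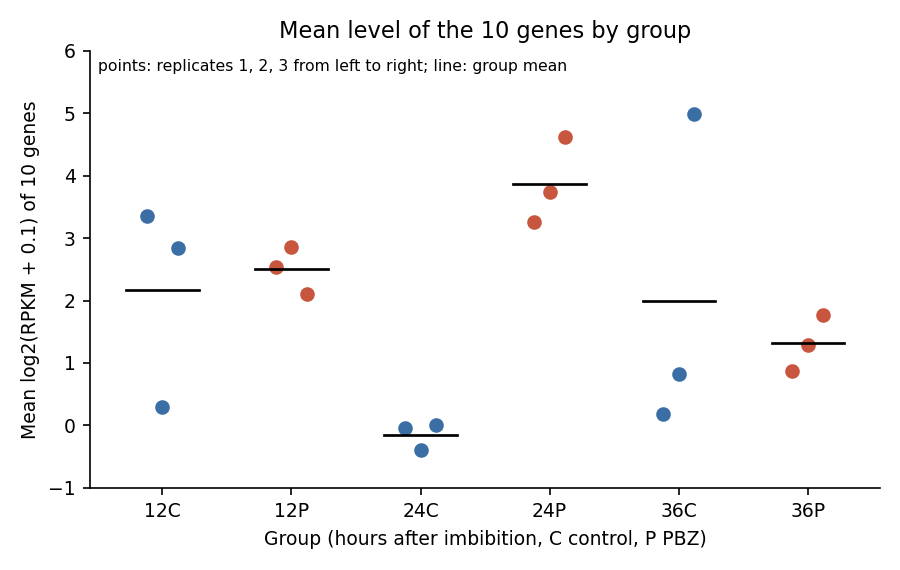
Mean of log2(RPKM + 0.1) over the 10 genes, with one point per library and a line at each group mean. The 24P libraries (3.25 to 4.61) and the 24C libraries (-0.40 to 0.00) do not overlap, and one library each of 12C and 36C lies far from the rest of its group.

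Ordered by the mean over the 10 genes, the groups stood at 3.87 ± 0.69 (SD, n = 3) for 24P, 2.50 ± 0.38 for 12P, 2.16 ± 1.64 for 12C, 2.00 ± 2.61 for 36C, 1.31 ± 0.45 for 36P and -0.15 ± 0.22 for 24C. The 24P libraries lay above the 12P libraries and the 36P libraries above the 24C libraries without overlap, while the 4 groups between them overlapped with their neighbours. The 24 HAI difference between PBZ and control in this mean was 4.02, against 0.34 at 12 HAI. At 36 HAI it was -0.68 with replicate 3 of 36C and 0.81 without it.

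Each library's level was then set beside its share of reads that mapped to several places, which the study's mapping table gives. The shares split at their widest gap into an upper and a lower 9, and the 9 libraries with the highest mean of the 10 genes were the 9 of the upper set. Of the genes, 5 (psbA, petB, petN, ycf3 and rbcL) did not overlap between the 2 sets of libraries, where 0.409% of the 31524 genes with a mean of at least 1 RPKM lay wholly higher in the upper set. The sets hold 24P against 24C, which entered the choice of the genes, so nothing is read from this count. For psbA the lower set reached 4.42 RPKM and the upper set began at 10.8 RPKM, and for rbcL these values were 15.4 and 22.9 RPKM. As the sets cut across treatments at 12 and 36 HAI and coincide with treatment at 24 HAI, share and treatment cannot be told apart at 24 HAI.

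**Figure D3:**
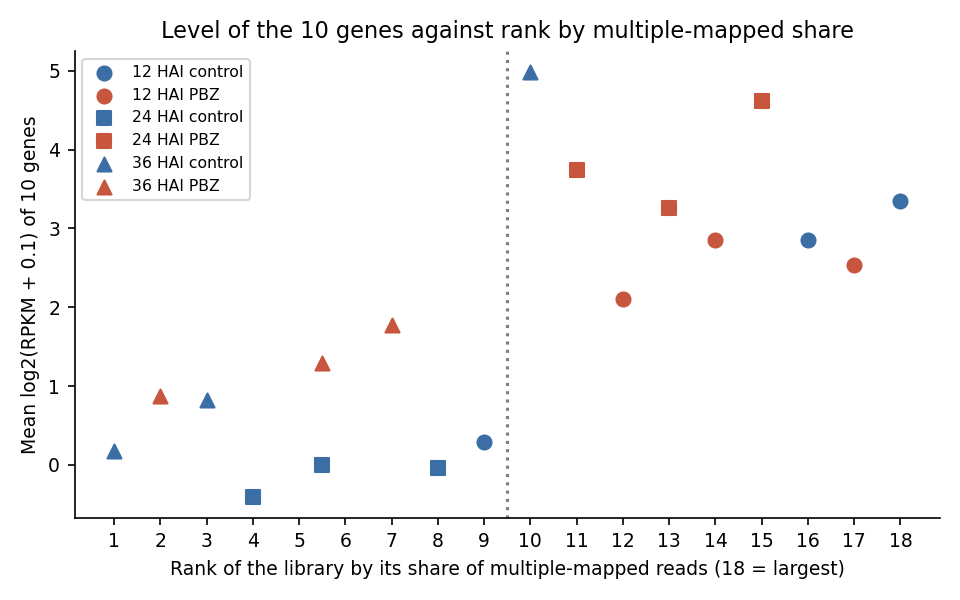
Mean of log2(RPKM + 0.1) over the 10 genes against the rank of the library by its share of multiple-mapped reads (18 is the largest share), with the dotted line between the lower and upper 9. Every library right of the line lies above every library left of it. Within a time the level is higher where the share is larger, with r of 0.95, 0.99 and 0.96 at 12, 24 and 36 HAI.

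Within each time the level was higher where the share was larger. Over the 6 libraries of 12 HAI, Pearson's r was 0.95 (exact two-sided permutation p = 0.0111, adjusted 0.0185) and Spearman's rho 0.77 (exact p = 0.103, adjusted 0.171). At 24 HAI r was 0.99 (exact p = 0.0111, adjusted 0.0185) and rho 0.89 (exact p = 0.0333, adjusted 0.0833), and at 36 HAI r was 0.96 (exact p = 0.00278, adjusted 0.0139) and rho 0.94 (exact p = 0.0167, adjusted 0.0833). The rho values did not hold after adjustment. As the genes were chosen from the contrasts at 24 and 36 HAI, nothing is read from p at these times. The libraries of each time lie on both sides of the gap between the sets, so r rests in part on that gap.

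Without the 2 libraries farthest from the median share, r over the remaining 4 was 0.47 at 12 HAI (exact p = 0.583), 0.997 at 24 HAI (exact p = 0.0833) and 0.91 at 36 HAI (exact p = 0.167), so at 12 HAI the relation rests on replicates 1 and 2 of 12C. On one side of the gap, the 5 low libraries of 36 HAI had means of 0.18, 0.88, 0.83, 1.29 and 1.77 from the smallest share to the largest. The 5 high libraries of 12 HAI had 2.1, 2.86, 2.85, 2.54 and 3.35 in the same order. The first of these series increased in all steps but one, and the second had its lowest and highest values at its ends.

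With times pooled, the relation was not seen inside the sets. In the upper 9, r was -0.23 (exact p = 0.548, adjusted 0.685) and rho -0.33 (exact p = 0.385, adjusted 0.482), and in the lower 9 r was -0.12 (exact p = 0.832, adjusted 0.832) and rho -0.0084 (exact p = 0.992, adjusted 0.992). Leaving out the 2 farthest libraries gave r of -0.14 (exact p = 0.751) and -0.098 (exact p = 0.815). These pooled values mix times of different level: in the lower 9 the 24C libraries have larger shares than most of the 36 HAI libraries there, and lower levels. In all, 5 relations were computed, those within times after the data had been seen, and p was adjusted over the 5.

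The 10 genes moved together. Each library's mean over the 10 genes, with equal weight per gene, accounted for 81.6% of their variation around the gene means over the 18 libraries. Within the upper 9 this share was 76.7% and within the lower 9 it was 46.5%. Between pairs of genes r ranged from 0.59 to 0.95 over the 18 libraries, with a median of 0.84, and from -0.21 to 0.94 in the lower 9, where few reads stood behind a value. With the mean of the other 9 genes, rbcL had the highest r, 0.99, and psbC the lowest, 0.81. All these points share libraries and their scaling, and the values are a description.

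Among the high libraries the ratios of several genes to rbcL differed between times. All these ratios share rbcL, which held 22.9 to 49.0 RPKM at 12 HAI and 61.98 to 155 RPKM at 24 HAI there. In RPKM itself ycf3, petN, petB and both psbD genes overlapped between the high libraries of these times. The ratios are therefore not separate observations, and the share of all genes with such ratios was not computed. There the level of ycf3 per RPKM of rbcL was 0.433 to 0.807 at 12 HAI, 0.259 to 0.340 at 24 HAI and 0.164 in the one high library of 36 HAI. For petN the ratio was 0.219 to 0.547 at 12 HAI, 0.128 to 0.203 at 24 HAI and 0.0762 at 36 HAI. For petB it was 0.196 to 0.363, then 0.0882 to 0.139, then 0.113, and for psbD Glyma.06G217900 0.117 to 0.207, then 0.0464 to 0.0756, then 0.103. For psbD Glyma.04G095000 it was 0.0383 to 0.0597, then 0.0176 to 0.0352, then 0.0440. For psbA, psbB, psbC and psaB these ranges of 12 and 24 HAI overlapped. Treatment and time coincide within part of these libraries (all high libraries of 24 HAI are PBZ libraries), so the 2 cannot be told apart there. The low libraries did not share this course. In 24C the ycf3 ratio was 0.811, 0.291 and 0.677 and the petN ratio 0.270, 0.290 and 0.411, and petN reached 0.350 and 0.363 in replicates 1 and 2 of 36C. Over all 18 libraries the petN ratios of the times overlapped, and so did the ycf3 ratios of 12 and 24 HAI, while ycf3 at 36 HAI reached 0.432 in replicate 1 of 36P against a lowest value of 0.433 at 12 HAI.

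Other genes of the table that bear the same names followed the members. The second psbA copy (Glyma.13G028200) had r = 0.963 with psbA over the 18 libraries and was lower in all 18. The second ycf3 copy (Glyma.09G178600) had r = 0.923 and was lower in 16, and the second psbC copy (Glyma.11G114700) had r = 0.867 and was higher in 13. The remaining psbD copy (Glyma.01G153500) had r = 0.940 with Glyma.04G095000 and 0.772 with Glyma.06G217900, while these 2 had r = 0.796 with each other. Only reads that mapped to a single place were kept, so a read that fits several copies equally was not counted. The split between copies is therefore uncertain.

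Among 12 further plastid-like photosynthesis genes, 11 were tested at 24 HAI and 8 were higher with PBZ by both limits, against 0.716% of all genes tested. Their median log2 difference was 3.85 at 24 HAI and -0.87 at 36 HAI, where 0 passed. They include psaC (Glyma.13G088500), singled out after its values were seen and named for the gene of the iron-sulfur subunit of photosystem I, listed at 0 in all of 24C against a mean of 8.05 ± 0.16 RPKM (SD, n = 3) in 24P. Among 13 plastid-like genes of other function 12 of 13 passed at 24 HAI, with a median of 3.67, and among 17 mitochondrion-like genes 17 of 17, with a median of 3.36. At 12 HAI, 0 genes of these 3 lists passed. A list of 6 plastid-like genes kept for having stayed out of the called sets, 2 of them also among the 12, had 3 called at 24 HAI and 6 positive differences with a median of 2.14. All these lists were drawn up with results of the data known.

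The mitochondrion-like genes differed between the upper and lower libraries too but had another course over time. Between these sets 16 of 17 did not overlap, where 0.409% of genes lay wholly higher in the upper set, and this list too was drawn from results that include 24 HAI. Of the 17, 14 were highest in replicate 1 of 12C, whereas 8 of the 10 were highest in replicate 3 of 36C. The mean log2 level of the 10 minus that of the 17 was -3.63 to -3.05 at 12 HAI, -2.92 to -1.41 at 24 HAI and -1.32 to -0.12 at 36 HAI. These ranges did not overlap between times, held control and PBZ libraries alike, and were not tested. Replicate 2 of 12C, low in both gene groups, lay at -3.63, and replicate 3 of 36C, high in both, at -0.12.

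**Figure D4:**
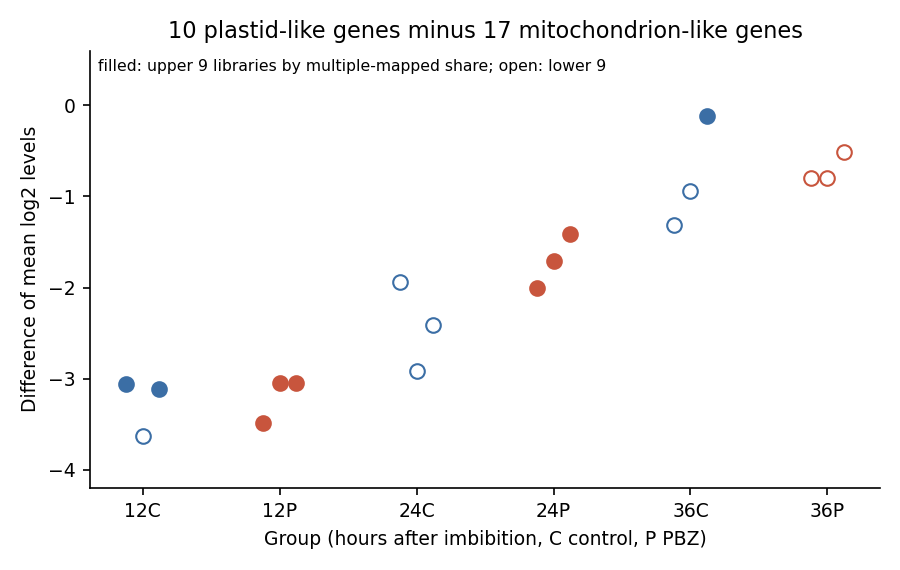
Mean log2(RPKM + 0.1) of the 10 plastid-like photosynthesis genes minus that of 17 mitochondrion-like genes, one point per library by group. Filled and open points are the upper and lower 9 libraries by multiple-mapped share. Together they lie between -3.63 and -3.05 at 12 HAI, -2.92 and -1.41 at 24 HAI, and -1.32 and -0.12 at 36 HAI. At 12 and 36 HAI every filled point lies above every open point, and at 24 HAI they overlap.

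Over 31524 genes with a mean of at least 1 RPKM, the 5 whose levels most resembled the mean of the 10 over the 18 libraries were atpA (Glyma.12G232000, r = 0.986), Glyma.20G045200 (r = 0.968, unnamed in the sources used here), psaA (Glyma.U016600, r = 0.963), atpF (Glyma.12G231900, r = 0.960) and petD (Glyma.15G114600, r = 0.958). Of the 5, 4 were in the plastid-like lists, and 25 genes outside the 10 had an r above 0.9. Of the 50 most alike, 19 were in a plastid-like list, 1 in the mitochondrion-like list and 30 in none. The lists and the 10 genes were chosen with results of these libraries known, so nothing is read from these counts. In the soybean plastid chromosome of the reference gene table psaA is the neighbour of psaB and of ycf3 among protein genes, petD of petB, and psbC of psbD. The genes atpA and atpF adjoin none of the 10 there, and whether likeness goes with position was not tested.

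Nuclear genes for photosystem proteins took another course. LHCB4 (Glyma.01G115900), an antenna protein of photosystem II, stood at 3.94, 6.78 and 7.90 RPKM in 12C and 3.92, 5.25 and 6.73 RPKM in 12P. It stood at 11.2, 26.0 and 17.3 RPKM in 24C and 11.6, 23.9 and 17.3 RPKM in 24P, and at 149, 125 and 163 RPKM in 36C and 146, 129 and 142 RPKM in 36P. Its levels did not overlap between times and overlapped between treatments at every time, and replicate 2 of 12C lay between the other replicates of its group. PSBO (Glyma.01G180800), which stabilises the site of water oxidation, had log2 differences of 0.00 ± 0.35 (SE), -0.07 ± 0.33 and -0.19 ± 0.10 at 12, 24 and 36 HAI, with limma adjusted p of 0.999, 0.904 and 0.648. At 36 HAI its PBZ libraries (67.3 to 80.1 RPKM) lay below its controls (81.0 to 93.5 RPKM), a placing found for 4.77% of genes tested. Over the 18 libraries r with the mean of the 10 was -0.17 for LHCB4 and -0.18 for PSBO. Other nuclear photosynthesis genes were not analysed here.

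**Figure D5:**
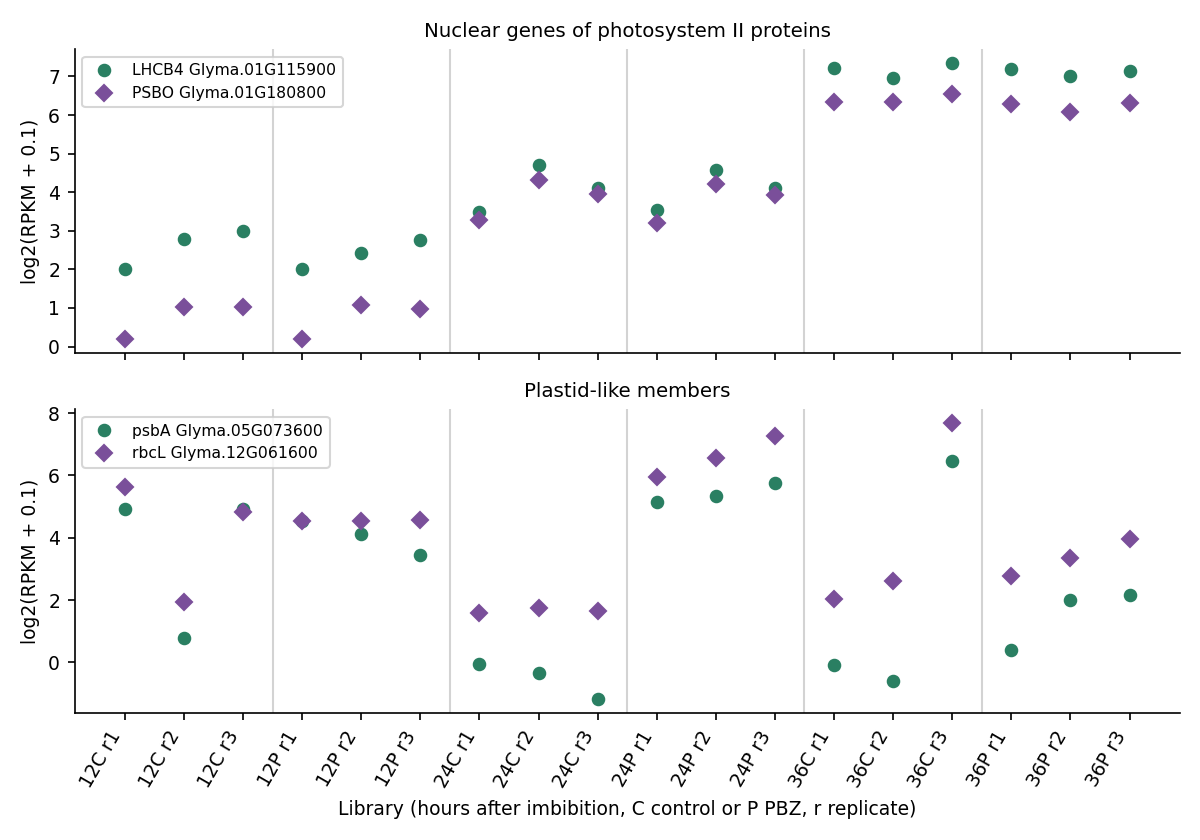
log2(RPKM + 0.1) in each library for LHCB4 and PSBO (upper panel) and for psbA and rbcL of the 10 genes (lower panel). The nuclear genes are higher at each later time in control and PBZ libraries, LHCB4 from 3.94 RPKM in the first 12C library to 163 RPKM in 36C. The plastid-like genes are not higher at each later time. As psbA and rbcL belong to the 10 genes whose mean set the high and low libraries, their following that cut was given in advance.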

How the data were processed

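Total RNA of embryonic axes was made into poly(A) libraries and sequenced single-end. Per the methods and the labels, the authors removed rRNA reads, aligned the rest to Wm82.a2.v1 with novoalign (3.06.05), kept uniquely mapped reads and computed RPKM with cufflinks (2.1.1). The deposited table holds RPKM for 56044 genes in 18 libraries, and 0 columns were left unmapped. A read that fits both the plastid genome and a nuclear copy counts for the copy only where that aligner gave it a single place there. The RPKM of these genes depends on that placement. How plastid sequence was treated in the alignment is not given in the sources used here.

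From the RPKM values, log2(RPKM + 0.1) was computed. At each time the PBZ libraries were set against the controls with limma 3.58.1 (trend, two-sided, R 4.3.3). A gene was tested where either group averaged 1 RPKM or more. Benjamini-Hochberg adjustment was used, and a call needed an adjusted p no larger than 0.05 together with a log2 change no smaller than 1. The fit was tested on simulated data. The tool of the study for this step needs alignments and was not run. Fold changes on this scale understate changes of low genes.

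The 10 genes and all gene lists were chosen with earlier results of these data known. The genes came from the contrasts at 24 and 36 HAI, where limma calls are given as a description only. Named genes were the 10 genes, other copies of the same names, the 5 genes most alike over the libraries, and LHCB4 and PSBO, with psaC added after its values were seen. The order of the libraries by multiple-mapped reads and the number of uniquely mapped reads came from the mapping table of the study. Reads behind a value were estimated as the smallest whole-number series that the products of RPKM and uniquely mapped reads followed. A first search over all 18 libraries, for estimates under 15 reads, found such steps for 5 of the 10 genes. The search used here took the 8 libraries of 24 and 36 HAI with low values and estimates under 30 reads, was chosen after the first had been seen, and found steps for 9 genes. All distances from a whole read were at most 0.0932. The estimates cover counting only. The labels do not say whether replicates came from separate seed lots, so p-values measure the spread between these libraries.

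Scripts ran in Python 3.11.15 (scipy 1.17.1, numpy 2.4.6, pandas 2.3.3). Alternatives covered other pseudocounts, filters and scalings, a single fit of all 18 libraries, a block for the replicate number, and fits without each replicate.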

Additional observations from a re-analysis of the deposited data

How the results depend on the processing

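The 24 HAI count of the 10 genes passing both limits was 7 and ranged from 5 to 8 with one library left out. It fell to 0 with all 18 samples in one fit, where the whole count at 24 HAI was 21 in place of 286. The count of the 10 was 6 without a filter, 7 with a pseudocount of 0.01 and 9 with a pseudocount of 1. Scaling by median ratios gave 8, a minimum of 5 RPKM gave 8 of 9 tested, and leaving the organellar lists out of the scaling gave 10. The PBZ minus control difference in the mean over the 10 genes at 24 HAI was 3.04 with a pseudocount of 1. At 12 and 36 HAI the count of the 10 was 0 in every setting. Over all genes, 12 HAI gave 3 calls, 0 with a pseudocount of 1, 0 with 0.01, 0 with a minimum of 5 RPKM, and 18 with all samples in one fit. At 36 HAI it gave 42, and 26 without a filter. The cause of these shifts was not tested. With one library left out, all-gene calls were 0 to 7, 126 to 298 and 0 to 17 at 12, 24 and 36 HAI. The PBZ minus control difference in the mean over the 10 was then -0.60 to 0.93, 3.64 to 4.33 and -1.59 to 0.81. At 12 HAI each gene's log2 difference changed sign in this way, none passing the limits: psbA -0.89 to 1.19, psbB -0.10 to 1.18, psbC -0.84 to 0.46, psbD Glyma.04G095000 -0.28 to 1.18, psbD Glyma.06G217900 -0.66 to 0.70, psaB -0.90 to 0.79, petB -0.27 to 1.01, petN -0.76 to 1.24, ycf3 -0.67 to 0.99 and rbcL -0.67 to 1.17. The search for whole-read steps over all 18 libraries, added after seeing the data, gave 5 genes in place of 9.

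With the replicate number as a block, calls were 4, 369 and 77 at 12, 24 and 36 HAI, and those of the 10 genes 0, 10 and 0. Deviations of same-numbered libraries correlated at 0.258, 0.171 and 0.0194 at 12 HAI, 0.246, 0.229 and 0.0527 at 24 HAI and 0.0742, 0.293 and 0.129 at 36 HAI. All these correlations were positive, and at no time did every pair exceed 0.1. The main fits left the replicate number out. Variation shared by same-numbered libraries therefore stays in their SE, and a pairing by number is not excluded.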

Other observations

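The library numbers in the labels of the 9 libraries with high levels of the 10 genes ran from 9 to 20, and those of the 9 low libraries from 1 to 22, with 6 of the low ones at 6 or under and 3 at 12, 19 and 22. What these numbers stand for is not given in the labels, and their relation to the levels was not tested.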
